A study of Mus musculus with 18 samples.

Results

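The genes described here are 9 that govern whether a lymphocyte stays in a tissue or leaves it: Itgae, Itga1, Cd69, Zfp683, Rgs1, S1pr1, S1pr5, Ahr and P2rx7. They were chosen by symbol, and each matched 1 of the 48440 gene identifiers in the table of counts. RNA was measured in CD45+ immune cells sorted from the livers of wild-type C57BL/6J mice (7 weeks old when bought), in which Ras and Myc oncogenes had been delivered by hydrodynamic tail vein injection, a method that carries DNA into hepatocytes and here raises primary liver tumours. All 6 groups came from this tumour model: untreated or treated mice, and in each the CD3+ cells were sorted by CD8 into CD3+CD8+ and CD3+CD8- fractions beside a CD3-CD8- fraction, with 3 libraries per group. The treated label names poly(I:C), a double-stranded RNA analogue sensed as viral, and anti-PD-L1, an antibody that blocks the ligand of the T cell checkpoint PD-1. The dosing protocol gives 4 mg/kg of poly(I:C) and 200 µg of anti-PD-L1 in 6 doses on alternate days, and it also lists anti-VEGF-A, which is absent from the treated label. The labels do not say whether the libraries of a group come from separate mice, so the p-values measure the spread between libraries, which may be technical.

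Lymphocytes leave a tissue by following sphingosine-1-phosphate, which is plentiful in blood and lymph and scarce inside tissues. The receptor S1PR1 reads this gradient on most lymphocytes, and S1PR5 does so on natural killer (NK) cells and some effector T cells. CD69, induced by activation and by interferon, binds S1PR1 and removes it from the surface, while RGS1 shortens signalling through the inhibitory G proteins that S1P and chemokine receptors use. Cells that stay are held by integrins: the αE chain encoded by Itgae pairs with β7 and binds E-cadherin on epithelium, and the α1 chain encoded by Itga1 pairs with β1 and binds collagen IV. Zfp683 encodes HOBIT, a repressor that together with BLIMP1 (Prdm1) shuts off S1pr1 and other exit genes in resident cells, and in the liver it is also known from type 1 innate lymphoid cells. AHR, a receptor for dietary and microbial ligands, supports resident lymphocytes of barrier tissues, and P2RX7, a channel opened by extracellular ATP and sensitised by ADP-ribosylation with NAD, can kill the resident cells that carry it. KLF2, the transcription factor of circulating T cells, switches on S1pr1.

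The members lie on 9 chromosomes, and positions are those of the deposited table with starts counted from 1; its build is not given in the sources used here. The integrin genes are Itgae at chromosome 11, 73090583 to 73147446, and Itga1 at chromosome 13, 114958079 to 115101964. S1pr1 lies at chromosome 3, 115710433 to 115715072, and S1pr5 at chromosome 9, 21242912 to 21248443. Cd69 lies at chromosome 6, 129267325 to 129275436, and Rgs1 at chromosome 1, 144242296 to 144249242. Zfp683 lies at chromosome 4, 134053838 to 134058996, Ahr at chromosome 12, 35497974 to 35535038, and P2rx7 at chromosome 5, 122643911 to 122691432. All 9 are annotated as protein-coding genes in GENCODE vM21.

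The promoters below are shown because an exit receptor called lower with treatment, though not once GC content was corrected for (S1pr5), and the ATP receptor that separated the T cell fractions (P2rx7) can be read beside KLF2, whose family binds the letters CACCC. RefSeq's promoter table for GRCm38.p6 held 3 of the 9 members (P2rx7, S1pr5 and Itga1), and each line gives the 250 bases before the annotated start, 5′ to 3′ on the gene's own strand, with CACCC or its complement GGGTG in capitals. The S1pr5 window is chr9:21248444-21248693 on the minus strand, and the P2rx7 window is chr5:122643677-122643926 on the plus strand, the first of its 2 annotated starts.
S1pr5: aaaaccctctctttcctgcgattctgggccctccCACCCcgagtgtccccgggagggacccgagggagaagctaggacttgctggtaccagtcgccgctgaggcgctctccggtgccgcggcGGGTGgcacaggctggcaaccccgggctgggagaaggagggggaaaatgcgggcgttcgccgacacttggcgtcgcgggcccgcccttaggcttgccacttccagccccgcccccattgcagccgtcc
P2rx7: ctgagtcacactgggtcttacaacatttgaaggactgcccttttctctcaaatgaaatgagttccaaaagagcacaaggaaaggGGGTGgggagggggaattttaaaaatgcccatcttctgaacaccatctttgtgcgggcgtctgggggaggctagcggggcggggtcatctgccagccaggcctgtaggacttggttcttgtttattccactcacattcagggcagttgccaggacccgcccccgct
The S1pr5 window held 2 matches and the P2rx7 window 1, searched on both strands. The Itga1 window, which is not printed, also held 2 matches to CACCC, and Itga1 was not called between treatments. These letters are common, since 52.0% of the 32851 promoter windows of the same length held at least 1 match. None of these 3 windows held GCGTG, the core letters that AHR binds, which 28.2% of promoter windows held, nor the T-box letters GGTGTGA, which 3.33% held. The window before the other P2rx7 start, chr5:122650133-122650382, held 1 GGTGTGA that overlaps its 1 CACCC-type match, and no GCGTG. The letters GAAAG, searched for BLIMP1 (Prdm1), had 1 match in each printed window and 3 in the Itga1 window. At least 1 match to GAAAG was held by 51.5% of promoter windows. These matches are a description of the letters and not of binding.

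Library totals ran from 1829155 to 28233682 counts. In 3 libraries (untreated CD3+CD8+ replicates 1 and 18 and treated CD3+CD8- replicate 2) 79.7% to 87.0% of counts lay on 5 ribosomal loci, against 0.35% to 2.26% in the other 15. The library labelled untreated CD3+CD8- replicate 6 goes against its sort: it had a Cd8a level of 641 CPM (counts scaled to the TMM-adjusted library total), where the other 2 of its group had 4.65 and 6.82 CPM. The cells sorted as CD3-CD8- also held T cell transcripts: Cd8a levels were 60.8 to 288 CPM without treatment and 549 to 985 CPM with it, and those of Cd3e, a chain of the CD3 complex, were 52.0 to 125 CPM and 173 to 311 CPM. Neutrophil transcripts were abundant in the CD3+CD8- libraries, where 7 markers summed to 3008 to 30452 CPM, against 39.5 to 807.5 CPM in CD3+CD8+ libraries. In such mixed RNA, fewer cells of a type and less RNA per cell cannot be told apart.

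Per gene length, in the authors' FPKM (fragments scaled to transcript length and library size), Rgs1 and Cd69 had the highest mean levels of the 9 in all 6 groups, with S1pr1 next. In untreated CD3-CD8- cells the level of Rgs1 was 371.5 ± 306 FPKM (SD, n = 3), that of Cd69 69.9 ± 42.8 and that of S1pr1 35.5 ± 10.9, and the ranges of Cd69 and S1pr1 overlapped. P2rx7 followed at 16.1 ± 9.23 FPKM and Zfp683 at 9.03 ± 8.31, and then S1pr5 at 6.82 ± 1.15, Itga1 at 6.73 ± 5.37, Itgae at 3.47 ± 1.34 and Ahr at 1.83 ± 0.376. From Zfp683 to Itgae each range overlapped that of the next gene in this order, while Ahr (1.59 to 2.27) lay below Itgae (2.39 to 4.97). Treated CD3-CD8- cells had the same first 4 members in the same order, with Rgs1 at 1093 ± 636 FPKM and S1pr1 at 20.4 ± 3.41. All CPM below are levels within 1 gene and should not be compared between genes.

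**Figure D1:**
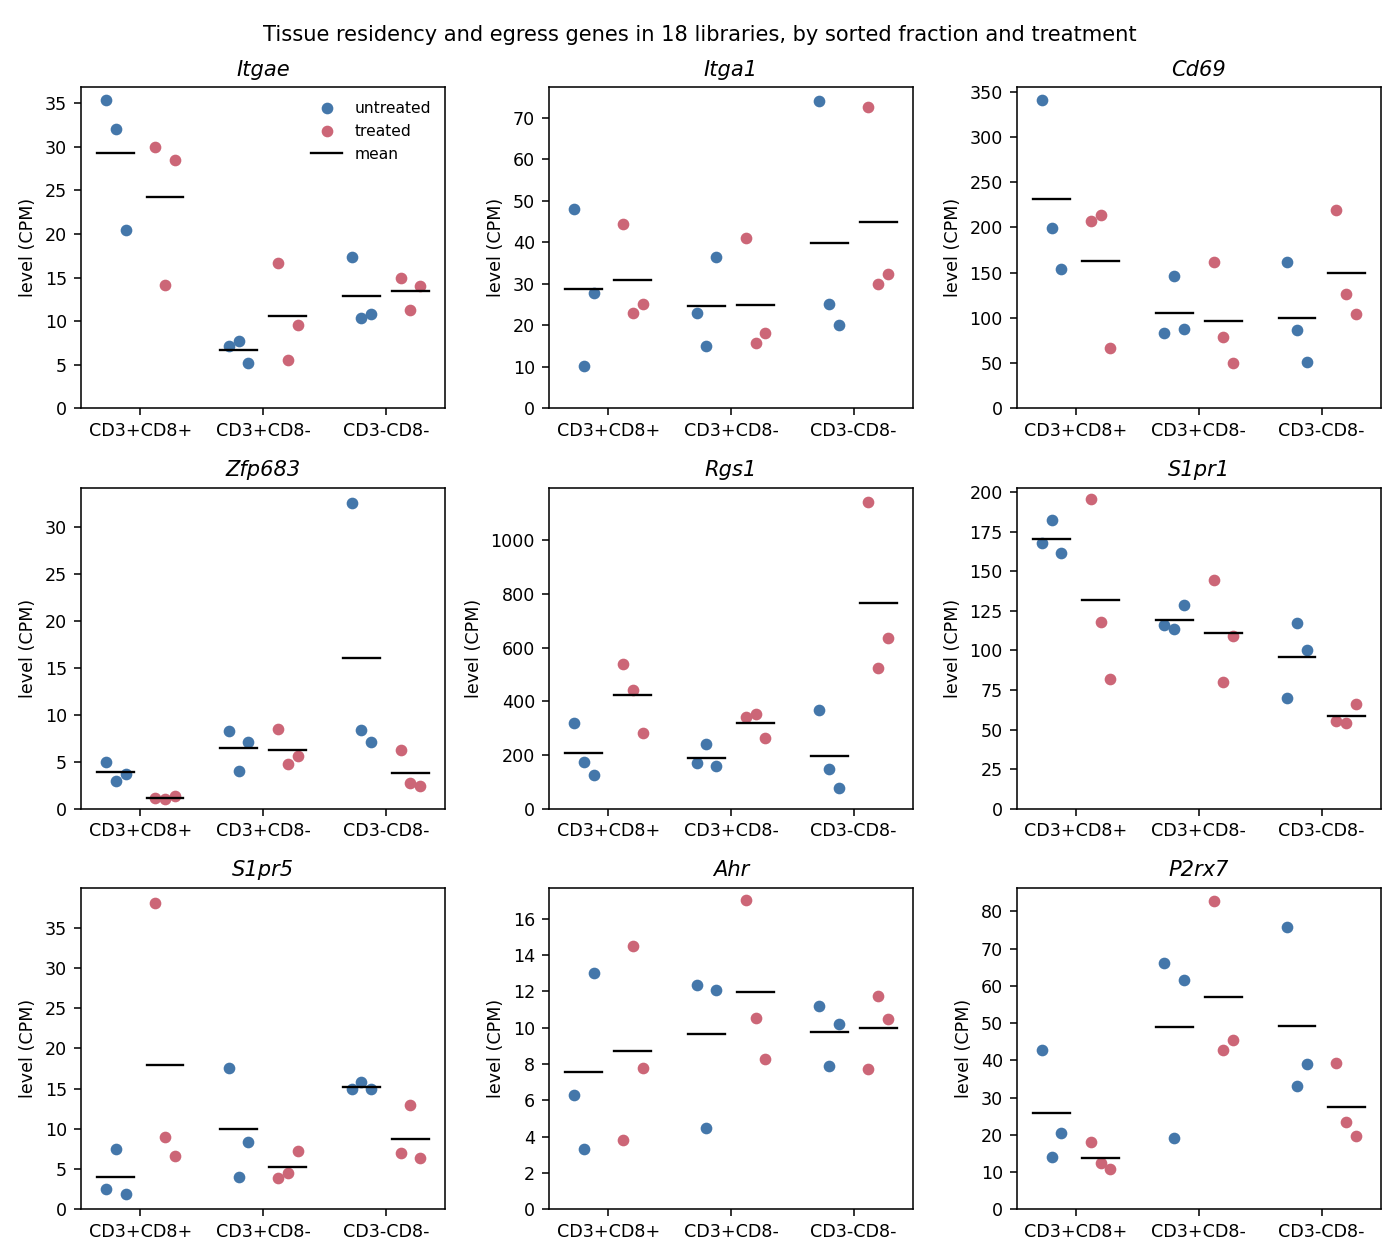
Level of each of the 9 genes in CPM (linear axis from 0) in the 18 libraries, by sorted fraction on the horizontal axis; each point is 1 library, blue untreated and red treated, and the bar is the mean of 3. Rgs1 in treated CD3-CD8- cells lies between 524 and 1143 CPM, above all 3 untreated libraries, while Ahr and Itga1 overlap between the treatments in every fraction.

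Members differed between treated and untreated mice in the CD3-CD8- fraction, the sort gate of the NK cells, innate lymphoid cells, B cells and myeloid cells. Its treated libraries were not free of T cell RNA, with 8 T cell markers summing to 3553 to 5406 CPM. The same sums were 2000 to 3617 CPM in treated CD3+CD8- and 4774 to 5731 CPM in treated CD3+CD8+ libraries. The changes below can therefore not be assigned to cells other than T cells. In the CD3-CD8- fraction Rgs1, the brake on G protein signalling, rose 3.88-fold (log2 1.51 to 2.70 with 1 library left out). The exit receptors S1pr1 and S1pr5 fell 1.68-fold and 1.85-fold. The other 6 members did not pass the test, Itgae, Itga1, Cd69 and Ahr with treated and untreated ranges that overlapped. Among 13781 genes tested with edgeR, 25.6% were called at an adjusted p below 0.05, and 33.3% of the members were (3 of 9), a share close to that background.

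Rgs1 stood at 368, 150 and 76.1 CPM in untreated replicates 1, 5 and 18 of the CD3-CD8- fraction and at 1143, 524 and 637 CPM in treated replicates 2, 11 and 19. Every treated library was above every untreated one, and replicate 1 was the highest of the untreated. The change was 1.96 on the log2 scale (SE 0.57, edgeR adjusted p = 0.0414). Art2b, an ADP-ribosyltransferase that acts on P2RX7, had 45.2 ± 28.2 CPM untreated and 128.7 ± 75.6 CPM treated (SD, n = 3), and did not pass the test (log2 change 1.52, SE 0.56, edgeR adjusted p = 0.0827).

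S1pr1 stood at 70.1, 117 and 100 CPM in untreated replicates 1, 5 and 18 and at 55.3, 54.2 and 66.0 CPM in treated replicates 2, 11 and 19. The ranges did not overlap, though untreated replicate 1 came within a few CPM of treated replicate 19. The log2 change was -0.75 (SE 0.21, edgeR adjusted p = 0.0396). S1pr5 was nearly the same in the 3 untreated libraries, at 14.9, 15.8 and 14.96 CPM, and lower in the treated ones, at 6.99, 12.9 and 6.38 CPM. Its log2 change was -0.89 (SE 0.27, edgeR adjusted p = 0.0460). Another receptor of the family, S1pr4, which lymphoid and myeloid cells express, fell by 1.52 on the log2 scale (SE 0.26, edgeR adjusted p = 0.0108), from 41.9 ± 14.7 to 14.7 ± 2.31 CPM (SD, n = 3). That call ended without untreated replicate 5 or treated replicate 2 (adjusted p up to 0.0566).

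Zfp683 and P2rx7 had lower values after treatment in this fraction without passing the test. Zfp683 stood at 32.6, 8.37 and 7.08 CPM in untreated replicates 1, 5 and 18 and at 6.23, 2.78 and 2.41 CPM in treated replicates 2, 11 and 19, and the groups did not overlap. Its log2 difference was -2.03 (SE 0.66, edgeR adjusted p = 0.0576), and DESeq2 and limma voom called it. Leaving out 1 library moved it between -2.69 (without treated replicate 2) and -1.05 (without untreated replicate 1), with adjusted p of 0.0389 to 0.1624. P2rx7 stood at 75.9, 33.05 and 39.1 CPM untreated and 39.4, 23.4 and 19.7 CPM treated, with overlapping groups (log2 difference -0.85, SE 0.38, edgeR adjusted p = 0.1305). Untreated replicate 1 was the highest of its group in Zfp683, P2rx7, Rgs1, Cd69, Itga1, Itgae and Ahr.

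The adhesion genes and Ahr differed by less than their spread in CD3-CD8- cells. The log2 difference of Itgae was 0.05 (SE 0.24), that of Itga1 0.18 (SE 0.54), that of Ahr -0.02 (SE 0.23) and that of Cd69 0.58 (SE 0.43). Itgb7, the partner chain of αE, fell by 1.06 on the log2 scale (SE 0.25, edgeR adjusted p = 0.0230), from 213 ± 59.3 to 103 ± 22.7 CPM, while Itgb1, the partner of α1, stood at 342 ± 49.3 and 309.7 ± 71.0 CPM and did not pass the test. The AHR target Tiparp rose by 0.51 (SE 0.13, edgeR adjusted p = 0.0299), from 23.3 ± 1.8 to 34.0 ± 3.81 CPM (SD, n = 3). The Tiparp call ended whichever of the 6 libraries was left out (edgeR adjusted p of 0.0552 to 0.1335), and the Itgb7 call without untreated replicate 1 or 5 or treated replicate 2 or 19 (up to 0.0877).

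Of the partner genes, the transcription factors Prdm1 and Klf2 and the receptor Cxcr6 were also called, in a comparison where 25.6% of all genes were. Prdm1, which encodes the residency repressor BLIMP1, rose from 14.2 ± 4.41 to 45.3 ± 8.03 CPM (log2 change 1.65, SE 0.25, edgeR adjusted p = 0.00915), and was called whichever library was left out. Cxcr6, the chemokine receptor that holds lymphocytes in liver sinusoids, rose from 239.5 ± 139 to 681 ± 235 CPM (log2 change 1.5, SE 0.44, edgeR adjusted p = 0.0415); without untreated replicate 5 or 18 or treated replicate 2 or 19 it was not called (up to 0.1615). Klf2 fell from 54.9 ± 12.8 to 25.6 ± 2.85 CPM (log2 change -1.13, SE 0.18, edgeR adjusted p = 0.00972), but its difference turned to 0.14 once GC content was corrected for, and the call ended without untreated replicate 5 (0.0514). Runx3, a transcription factor of resident and CD8 T cells, stood at 51.8 ± 10.8 CPM untreated and 62.3 ± 23.4 CPM treated (SD, n = 3) and did not pass the test.

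Markers of other cells moved in the same libraries. The 8 T cell markers summed to 596 to 1569 CPM in untreated and 3553 to 5406 CPM in treated CD3-CD8- libraries, with 7 of 8 higher and none at 0. Of 8 B cell markers 6 fell (sums of 2590 to 3722 and 1669 to 2265 CPM), of 6 Kupffer cell markers 3 fell (sums of 237 to 777.5 and 68.9 to 353 CPM), and of 7 neutrophil markers 3 rose (sums of 125 to 816 and 555 to 19653 CPM). Markers counted as changed are those called at an edgeR adjusted p below 0.05, where 25.6% of all genes were called. The Kupffer and neutrophil sums overlapped between treatments. The highest neutrophil sum came from 1 treated library, and the treated median was 1432 CPM. Of 5 NK cell markers 1 rose and 1 fell, and their sums were 265 to 308 CPM untreated and 259 to 296 CPM treated. The 1 that rose was Eomes, which effector T cells also express (33.4 ± 16.5 to 88.5 ± 16.8 CPM), and Itga2 fell. The 6 markers shared by NK cells and type 1 innate lymphoid cells summed to 966 to 1568 CPM untreated and 617 to 1378 CPM treated. Their medians were 1076 and 635 CPM. The 5 markers of type 1 innate lymphoid cells summed to 324 to 769 and 430 to 688 CPM. For 5 markers of type 1 conventional dendritic cells the sums were 246.3 to 315.4 CPM untreated and 101.9 to 245.8 CPM treated. The part of these shifts in the changes of Rgs1, S1pr1 and S1pr5 was not tested.

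All 3 calls in CD3-CD8- cells lie near the threshold. With a correction for GC content none of the 3 was called (Rgs1 log2 1.31, adjusted p = 0.170; S1pr1 -0.73, adjusted p = 0.0813; S1pr5 -0.075, adjusted p = 0.899), nor in a fit of all 18 libraries (edgeR adjusted p = 0.0782, 0.185 and 0.418). The Rgs1 call also ended without untreated replicate 5 (edgeR adjusted p = 0.160) or 18 (0.0652), or treated replicate 2 (0.135), 11 (0.0505) or 19 (0.0811). The S1pr1 call ended without the same libraries (0.129, 0.0874, 0.111, 0.0918 and 0.0795 in that order). The S1pr5 call ended without untreated replicate 1 (0.0952), 5 (0.155) or 18 (0.0795), or treated replicate 2 (0.152) or 19 (0.142). In each of these fits the sign of the 3 changes was that of the fit without omissions.

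**Figure D2:**
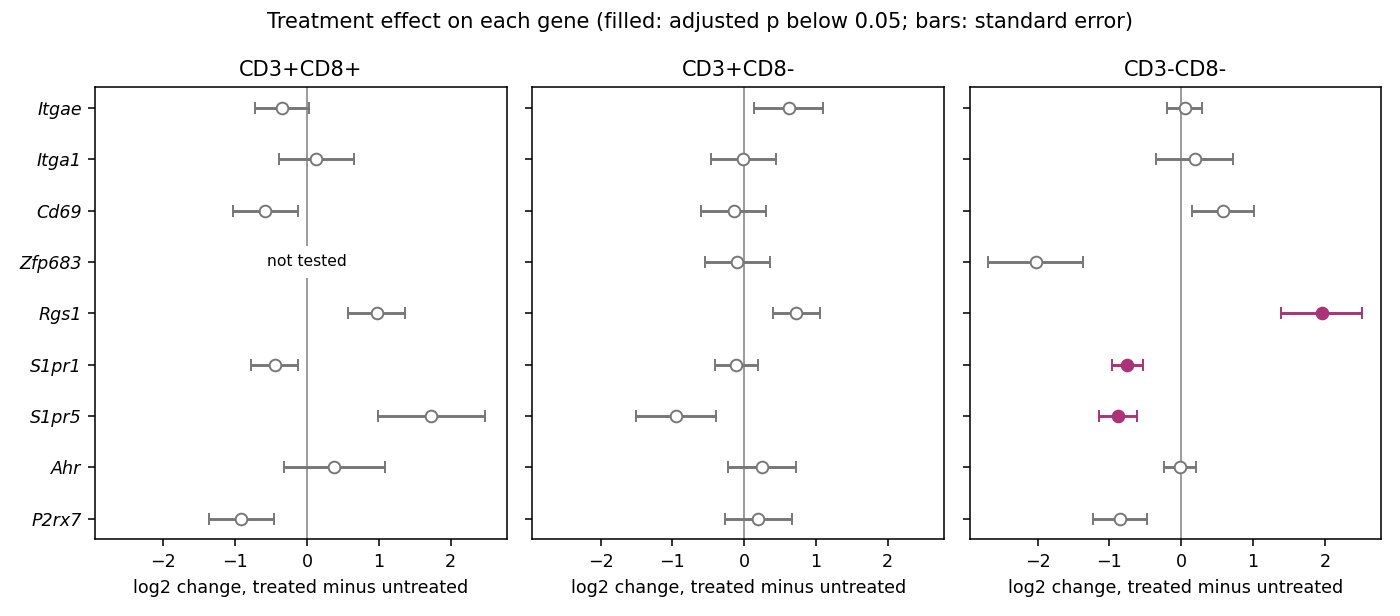
Log2 change (treated minus untreated, horizontal axis) of the 9 genes in each sorted fraction, from edgeR; bars are standard errors and filled points have an adjusted p below 0.05. The 3 filled points are Rgs1 (1.96), S1pr1 (-0.75) and S1pr5 (-0.89) in CD3-CD8- cells, and Zfp683 was not tested in CD3+CD8+ cells.

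In CD3+CD8+ cells, the CD8 T cells, no member passed the test, and neither did any other gene. edgeR called 0 of 10654 genes (0%), with 624 at an unadjusted p below 0.05, and 0 of the 8 members tested, with Rgs1 and S1pr5 at an unadjusted p below 0.05; DESeq2 and limma voom called 0 members. Rgs1 stood at 319, 174 and 126 CPM in untreated replicates 1, 5 and 18 and at 443, 541 and 283 CPM in treated replicates 11, 2 and 19, with treated replicate 19 inside the untreated range (log2 difference 0.97, SE 0.40). S1pr5 stood at 2.52, 7.52 and 1.86 CPM untreated, the last from a single count, and at 9.01, 38.1 and 6.65 CPM treated (log2 difference 1.73, SE 0.75). The mean of the treated group rests on replicate 2.

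In CD8 T cells 6 other members overlapped between treatments. The log2 difference was -0.91 (SE 0.46) for P2rx7, -0.58 (SE 0.45) for Cd69, -0.45 (SE 0.33) for S1pr1, -0.34 (SE 0.38) for Itgae, 0.38 (SE 0.70) for Ahr and 0.13 (SE 0.53) for Itga1. Zfp683 was too low to be tested there: it had 5.04, 2.92 and 3.71 CPM in untreated and 1.001, 1.21 and 1.37 CPM in treated libraries, groups that did not overlap, and the untreated values came from as few as 2 counts. Prdm1 had the smallest unadjusted p of the partner genes, with 15.2 ± 3.61 CPM untreated and 52.7 ± 1.27 CPM treated (log2 difference 1.68, SE 0.30, edgeR adjusted p = 0.273). Cxcr6 stood at 228 ± 73.7 and 576 ± 60.2 CPM and Art2b at 57.2 ± 17.5 and 135 ± 47.1 CPM (SD, n = 3), log2 differences of 1.28 (SE 0.34, edgeR adjusted p = 0.462) and 1.15 (SE 0.34, edgeR adjusted p = 0.506). Markers of B cells summed to 1702 CPM in 1 untreated library of this fraction and to 32.4 CPM in another, against 23.4 to 33.1 CPM in the treated ones.

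In CD3+CD8- cells, which hold CD4 T cells, no member passed the test between treated and untreated libraries. edgeR called 0 of 11197 genes (0%), with 198 at an unadjusted p below 0.05, and 0 of 9 members, none of them at an unadjusted p below 0.05; DESeq2 and limma voom called 0 members. Rgs1 had 171, 158 and 242 CPM in untreated replicates 5, 18 and 6 and 352.5, 343 and 264 CPM in treated replicates 11, 2 and 19. These groups did not overlap, but Rgs1 did not pass the test (log2 difference 0.73, SE 0.33, edgeR adjusted p = 0.9998). The share of all genes without overlap was not counted. The log2 difference was 0.62 (SE 0.48) for Itgae, -0.94 (SE 0.56) for S1pr5, 0.25 (SE 0.47) for Ahr and 0.20 (SE 0.46) for P2rx7. It was -0.15 (SE 0.45) for Cd69, -0.11 (SE 0.30) for S1pr1, -0.10 (SE 0.45) for Zfp683 and -0.01 (SE 0.46) for Itga1. P2rx7 turned to -0.55 and Ahr to -0.41 without treated replicate 2 and untreated replicate 6, the library rich in ribosomal counts and the one rich in Cd8a. Prdm1 stood at 21.2 ± 6.23 CPM untreated and 41.2 ± 7.51 CPM treated (log2 difference 0.93, SE 0.315, edgeR adjusted p = 0.9998), without overlap. Art2b stood at 52.2 ± 7.87 and 75.4 ± 10.3 CPM, also without overlap, while Cxcr6 (276.5 ± 127 and 378 ± 140 CPM) overlapped (SD, n = 3).

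Whether treatment acted differently on a member in different fractions was tested as a difference of the treatment effects. No member was called in any of the 3 differences, and edgeR called 0 of 13181 genes in each (0%), with 478 genes at an unadjusted p below 0.05 for CD3+CD8+ against CD3+CD8- cells, 515 for CD3+CD8+ against CD3-CD8- and 503 for CD3+CD8- against CD3-CD8-. DESeq2 and limma voom also called 0 members. S1pr5 had the largest difference: its treatment effect in CD3+CD8+ cells lay 2.70 log2 units (SE 0.93, edgeR adjusted p = 0.812) above that in CD3+CD8- cells and 2.59 (SE 0.91, edgeR adjusted p = 0.844) above that in CD3-CD8- cells. With 1 library left out these were 1.6 to 3.90 and 1.46 to 3.76, lowest without treated CD3+CD8+ replicate 2 and highest without untreated CD3+CD8+ replicate 5. The effect on Zfp683 in CD3+CD8- cells lay 1.96 (SE 0.76, edgeR adjusted p = 0.977) above that in CD3-CD8- cells, and 0.91 above it without untreated CD3-CD8- replicate 1. These are the only members with an unadjusted p below 0.05 in these tests, and the fall of S1pr1 and S1pr5 in CD3-CD8- cells is therefore not shown to differ from the T cell fractions.

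The count of the exit receptor relative to a retention gene in the same library needs no scaling between libraries. S1pr1 counts divided by Rgs1 counts gave 0.190, 0.779 and 1.32 in untreated replicates 1, 5 and 18 of CD3-CD8- cells and were lower, at 0.0484, 0.104 and 0.104, in the treated libraries 2, 11 and 19. Among CD8 T cells the ratio was 0.526, 1.05 and 1.28 untreated and 0.266, 0.362 and 0.291 treated. Among CD3+CD8- cells the untreated libraries gave 0.676, 0.814 and 0.468 and the treated ones 0.227, 0.422 and 0.413. All 3 treated libraries lay below all 3 untreated ones in each fraction. The ratio of S1pr1 to Cd69 overlapped between treatments in every fraction, and in CD3-CD8- cells it averaged 1.25 ± 0.767 untreated and 0.436 ± 0.189 treated (SD, n = 3). No test was made of the ratios, which were chosen with the single genes' values known.

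**Figure D3:**
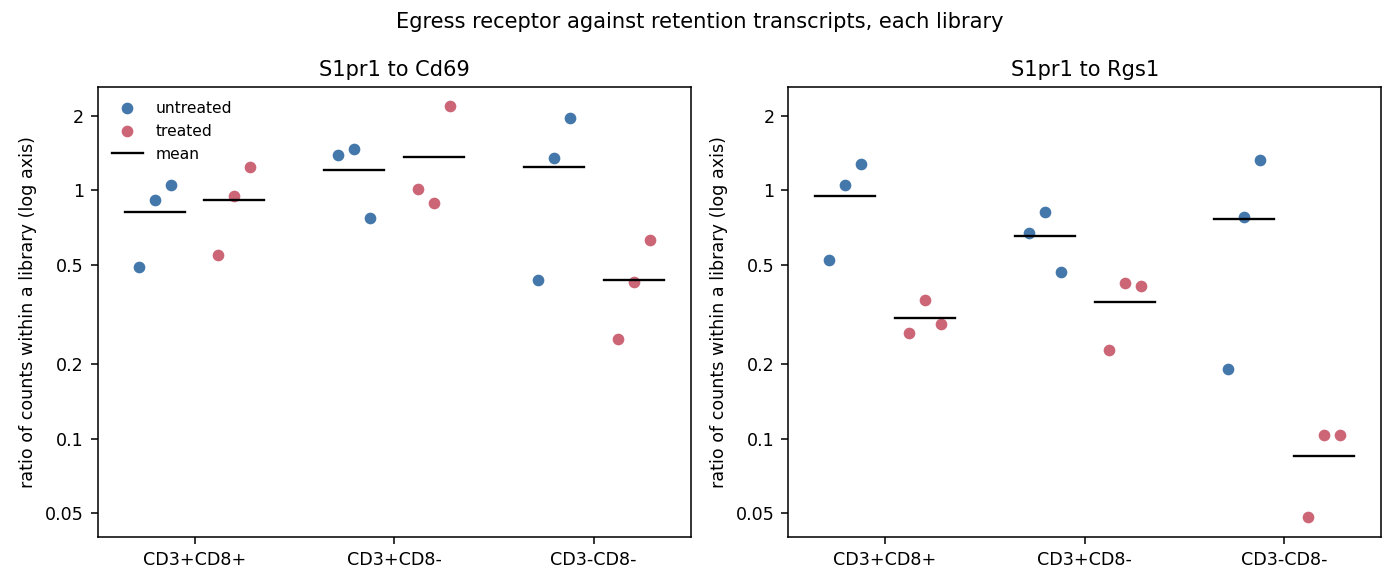
Counts of S1pr1 divided by counts of Cd69 (left) and of Rgs1 (right) in each library, on log axes, by sorted fraction; blue points are untreated, red points treated and bars are means of 3. The right panel shows no overlap between treatments in any fraction, with treated CD3-CD8- libraries lowest at 0.0484 to 0.104, and the left panel shows overlap in all 3.

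Between the T cell fractions of untreated mice, Itgae was higher in the CD3+CD8+ libraries. It stood at 35.3, 32.1 and 20.4 CPM in CD3+CD8+ replicates 1, 5 and 18 and at 7.21, 5.25 and 7.70 CPM in CD3+CD8- replicates 5, 18 and 6, a 4.44-fold difference with no overlap (log2 2.15, SE 0.41, edgeR adjusted p = 0.0201). It was the 1 member called of 9, where 1.58% of 13181 genes were called. The other 8 did not pass; Cd69 was at 340, 200 and 154 CPM in CD3+CD8+ cells and 83.2, 88.2 and 147 CPM in CD3+CD8- cells, and S1pr1 at 168, 182 and 161 and at 116, 129 and 113 CPM, each without overlap. The CD3+CD8- library rich in Cd8a (641 CPM), replicate 6, had an Itgae level of 7.70 CPM. That was the highest of its group, but below the 20.4 CPM of the lowest CD3+CD8+ library. The Itgae levels of CD3+CD8+ replicates 1 and 18, both rich in ribosomal counts, came from 28 and 11 counts. Of 8 B cell markers 4 were higher in CD3+CD8+ cells and of 7 neutrophil markers 1 was lower, and their part in the Itgae difference was not tested.

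The Itgae call rests on every one of 4 libraries. It ended without untreated CD3+CD8+ replicate 1 (edgeR adjusted p = 0.0737) or 5 (0.0513), without untreated CD3+CD8- replicate 5 (0.0647) or 18 (0.0873), with limma voom (0.0740) and in a fit of the 2 groups alone (0.0998). The log2 difference of Itgae was 2.0 to 2.31 whichever library was left out. It was called without untreated CD3+CD8- replicate 6, the library rich in Cd8a. Leaving out the libraries rich in ribosomal counts leaves only replicate 5 of the CD3+CD8+ group, assumed to vary like the other groups; Itgae then had an adjusted p of 0.0582.

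In treated mice, P2rx7 and Zfp683 were lower in CD8 T cells than in CD3+CD8- cells. P2rx7 stood at 12.5, 18.01 and 10.9 CPM in CD3+CD8+ replicates 11, 2 and 19 and at 42.7, 82.7 and 45.4 CPM in CD3+CD8- replicates 11, 2 and 19, a 4.12-fold difference with no overlap (log2 -2.04, SE 0.50, edgeR adjusted p = 0.0203). Zfp683 stood at 1.001, 1.21 and 1.37 CPM and at 4.80, 8.50 and 5.63 CPM in the same order, a 5.07-fold difference (log2 -2.34, SE 0.59, edgeR adjusted p = 0.0241). These are 2 of 9 members, where 5.96% of genes were called. Itgae was at 14.2, 30.0 and 28.4 CPM and at 5.51, 16.6 and 9.56 CPM; it was higher in CD8 T cells of each number, with overlapping groups (log2 1.23, SE 0.38, edgeR adjusted p = 0.0702). With libraries of the same number treated as a block it was called (log2 1.26, SE 0.26, adjusted p = 0.00825), which made 3 members, and it was also called with DESeq2 (adjusted p = 0.0278), limma voom (0.00996), GC content corrected for (0.0357), no filter (0.0295) and without the libraries rich in ribosomal counts (0.0308).

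Neutrophil markers separated the same libraries: all 7 were lower in treated CD3+CD8+ cells, with sums of 86.3 to 643.5 CPM against 10392 to 30452 CPM in CD3+CD8- cells. Their part in the P2rx7 and Zfp683 differences was not tested. Both calls ended when the libraries rich in ribosomal counts were left out (edgeR adjusted p = 0.0638 for P2rx7 and 0.0964 for Zfp683). Without untreated CD3+CD8- replicate 6 as well, P2rx7 was called and Zfp683 was not (0.0981). P2rx7 also ended without treated CD3+CD8+ replicate 11 (0.0843), 2 (0.0527) or 19 (0.0808) or treated CD3+CD8- replicate 2 (0.0899), and Zfp683 without the same 4 libraries (0.0923, 0.0913, 0.0641 and 0.0795) and with GC content corrected for (0.0560) or limma voom (0.125). The log2 difference of P2rx7 was -1.67 without treated CD3+CD8- replicate 2, the library with its highest level.

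Between CD8 T cells and CD3-CD8- cells of treated mice, S1pr1 separated the fractions. It stood at 118, 196 and 82.1 CPM in CD3+CD8+ replicates 11, 2 and 19 and at 54.2, 55.3 and 66.0 CPM in CD3-CD8- replicates 11, 2 and 19, 2.25-fold higher in CD8 T cells with no overlap (log2 1.17, SE 0.29, edgeR adjusted p = 0.0278). It was 1 of 9 members called, where 4.94% of genes were. With libraries of the same number as a block 3 members were called: S1pr1 (log2 1.09, adjusted p = 0.0236), P2rx7 (-0.96, adjusted p = 0.00602) and Zfp683 (-1.47, adjusted p = 0.0233), the last 2 lower in CD8 T cells. The 4.94% is from edgeR without the block. Without treated CD3+CD8+ replicate 2 the S1pr1 difference fell to 0.71 (edgeR adjusted p = 0.311). The call also ended without CD3+CD8+ replicate 11 (0.0747), without CD3-CD8- replicate 2 (0.110), 11 (0.184) or 19 (0.0762), with no filter on low counts (0.0633), without both kinds of doubted library (0.0550) and in a fit of the 2 groups alone (0.0806). All 8 B cell markers were lower in the treated CD8 T cells, at sums of 23.4 to 33.1 CPM against 1669 to 2265 CPM, and their part in the difference was not tested.

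In untreated mice no member was called between CD8 T cells and CD3-CD8- cells without the block, where 4.57% of genes were called. DESeq2 called 2 members and limma voom 3, in fits whose shares of all genes called are not given here. In edgeR 5 of 9 members had an unadjusted p below 0.05, as did 3037 of 13181 genes. Zfp683 was 4.48-fold lower in CD8 T cells (log2 -2.16, SE 0.64, edgeR adjusted p = 0.0616) and Itgae 2.32-fold higher (log2 1.22, SE 0.38, edgeR adjusted p = 0.0749), each without overlap. S1pr1 was higher in CD8 T cells here as in treated mice, also without overlap (log2 0.83, SE 0.29, edgeR adjusted p = 0.108). S1pr5 was lower without overlap (log2 -1.55, SE 0.68, edgeR adjusted p = 0.188). With libraries of the same number as a block 4 were called: Itgae (log2 1.23, adjusted p = 0.0160) and Cd69 (1.28, adjusted p = 0.0147) higher in CD8 T cells, and Zfp683 (-1.79, adjusted p = 0.0156) and P2rx7 (-1.04, adjusted p = 0.0100) lower. The 4.57% is from edgeR without the block, and the block's own share of all genes called is not given here. The Zfp683 level of untreated CD3-CD8- replicate 1, at 32.6 CPM, was far above the 8.37 and 7.08 CPM of replicates 5 and 18.

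No member was called between CD3+CD8- and CD3-CD8- cells, where 3.16% of genes were called in untreated and 1.23% in treated mice. In untreated mice 2 of 9 members and 2019 of 13181 genes had an unadjusted edgeR p below 0.05, and DESeq2 and limma voom called 0 members. In treated mice 3 members and 1807 genes did, and DESeq2 called 1 member (S1pr1) and limma voom 0. In treated mice S1pr1 was at 80.1, 144.5 and 109 CPM in CD3+CD8- replicates 11, 2 and 19, above the 3 CD3-CD8- libraries (log2 0.92, SE 0.29, edgeR adjusted p = 0.1304). Rgs1 was lower in CD3+CD8- cells (log2 -1.27, SE 0.49, edgeR adjusted p = 0.228) and P2rx7 higher (log2 1.04, SE 0.48, edgeR adjusted p = 0.353). With libraries of the same number as a block the last 2 were called (Rgs1 -1.21, adjusted p = 0.0311; P2rx7 1.05, adjusted p = 0.0100). The 1.23% is from edgeR without the block.

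The genes around the 9 members were read from 8 lists. In treated against untreated CD3-CD8- cells, the tissue residency list (22 genes tested) had 7 called higher and 1 lower, 36.4% called against 25.6% of all genes, with a median log2 change of 0.46 against -0.06 over all genes tested. Prdm1 led it, followed by Cd101, an inhibitory receptor of resident CD8 T cells (log2 1.90, SE 0.30, edgeR adjusted p = 0.00992), and Cd244a, the receptor 2B4 (log2 0.90, SE 0.21, edgeR adjusted p = 0.0210). The circulation and lymphoid homing list (17 tested) had 7 called lower and 1 higher (47.1% called), with a median of -0.74. Its leading genes were Tcf7, the factor of naive and stem-like T cells (log2 -1.28, SE 0.18, edgeR adjusted p = 0.00905), Klf2, and Kcnj8, a potassium channel subunit (log2 -2.03, SE 0.38, edgeR adjusted p = 0.0124). The exceptions, named after their values were seen, were Nr4a1 of the residency list, an early response gene of receptor signalling (log2 -1.65), and Eomes of the circulation list, a T-box factor of NK and effector T cells (log2 1.38). Nr4a1 was not called with GC content corrected for, and neither in a fit of all 18 libraries. Apart from Klf2 and Gnai2, whose differences changed sign with GC content corrected for, the calls of other list genes in these settings are not given here. The list medians were not recomputed in them.

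The sphingosine-1-phosphate list (13 tested, S1pr1 and S1pr5 not among them) had 3 called lower and none higher (23.1% called, below the 25.6% of all genes), with a median of -0.64: S1pr4, the kinase Sphk2 that makes the lipid (log2 -1.55, SE 0.29, edgeR adjusted p = 0.0124) and the exporter Spns2 (log2 -1.49, SE 0.32, edgeR adjusted p = 0.0170). Of 11 RGS and inhibitory G protein genes 2 were called (18.2%), both lower: Gnai2 (log2 -0.70, SE 0.16, edgeR adjusted p = 0.0204), an inhibitory α subunit whose difference turned to 0.065 with GC content corrected for, and Rgs14 (log2 -1.005, SE 0.28, edgeR adjusted p = 0.0351). Of 5 aryl hydrocarbon receptor genes (60% called) 1 was higher, Tiparp, and 2 lower, among them the chaperone Hsp90ab1 (log2 -0.82, SE 0.25).

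Of 14 genes of extracellular ATP and NAD 2 were called higher and 2 lower (28.6%, near the 25.6% of all genes), led by Casp1, the inflammasome protease (log2 1.65, SE 0.21, edgeR adjusted p = 0.00845), Entpd1, which degrades ATP (log2 0.997, SE 0.18, edgeR adjusted p = 0.0115), and Ada, which degrades adenosine (log2 -1.51, SE 0.34, edgeR adjusted p = 0.0202). Of 16 integrin genes 3 were higher and 4 lower (43.8%), among them Itgav (log2 0.97, SE 0.13, edgeR adjusted p = 0.00860), Itga4 (log2 0.99, SE 0.21, edgeR adjusted p = 0.0163) and Itgb3 (log2 -1.40, SE 0.25, edgeR adjusted p = 0.0117). Of 14 TGF-β and IL-15 genes 1 was higher and 3 lower (28.6%), led by Tgfb1 (log2 -1.18, SE 0.14, edgeR adjusted p = 0.00826), a cytokine that induces Itgae, and Il15ra (log2 1.42, SE 0.32, edgeR adjusted p = 0.0197), which presents IL-15. Of the genes named from the lists for this comparison, Prdm1, Cd101, Itgav and Tgfb1 were called whichever library was left out. Each of the others lost its call without at least 1 library, with adjusted p of up to 0.1488 (Rgs14). No list gene was called between treatments in either T cell fraction, where no gene at all was. The residency list had medians of 0.34 in CD3+CD8+ and 0.38 in CD3+CD8- cells, with 15 of 22 genes positive in each. The circulation list had -0.15 and -0.34, with 5 of 17 positive in each. The sphingosine-1-phosphate list had 0.005 and 0.12, over 7 genes tested in each. The lists were drawn up with earlier results of these data known, and their counts are a description.

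**Figure D4:**
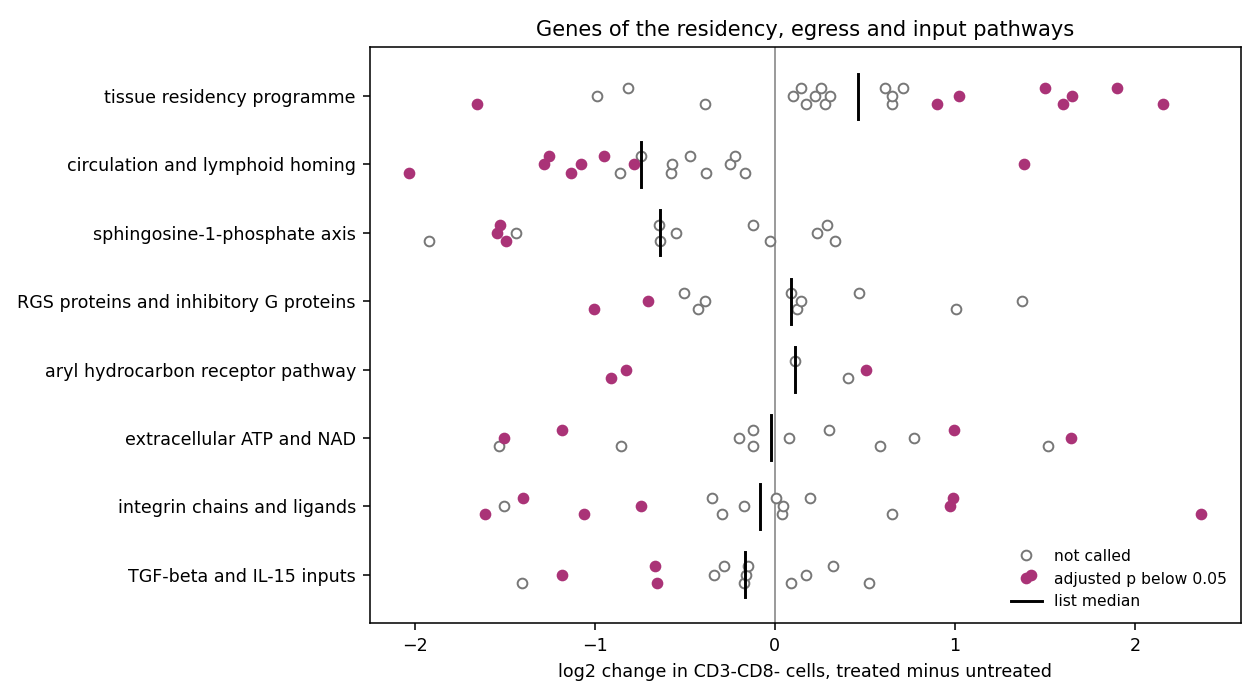
Log2 change in CD3-CD8- cells (treated minus untreated, horizontal axis) of every tested gene of 8 lists around the 9 members; filled points have an edgeR adjusted p below 0.05 and the vertical bar is the list's median. The residency list has its median at 0.46 and the circulation list at -0.74.

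Between fractions, 2 genes of the circulation list, Tcf7 and its relative Lef1, were called higher in T cells than in CD3-CD8- cells in all 4 such comparisons, with log2 differences of 2.0 to 2.95 for Tcf7 and 2.13 to 3.40 for Lef1. Spns2 was lower in T cells in the same 4 (log2 -3.28 to -5.77). Itgb3 was lower in CD8 T cells than in CD3+CD8- cells in untreated (log2 -1.62, SE 0.33, edgeR adjusted p = 0.0279) and treated mice (log2 -1.70, SE 0.31, edgeR adjusted p = 0.00339), as were Nlrp3 and Il1b of the ATP list, inflammasome genes that neutrophils express. With 1 library left out the untreated calls of Itgb3, Nlrp3 and Il1b could end (adjusted p up to 0.0985, 0.1045 and 0.1702), as could those of Tcf7 (0.0525) and Lef1 (0.0781) in untreated and of Spns2 (0.0506) in treated CD3+CD8- cells.

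Across the 18 libraries the members did not share 1 pattern. The pair most alike was Zfp683 and P2rx7 (Pearson r = 0.86 on log2 CPM), which were also low together in treated CD8 T cells. Cd69 and Itgae had r = 0.58, Itga1 and Rgs1 0.51, and Rgs1 and S1pr1 -0.47. Over 7597 genes searched, the closest to Rgs1 were Fasl (0.90), Art2b (0.89) and Tnfsf10 (0.89), and the closest to Cd69 were the heat shock gene Hsp90aa1 (0.90), Rbm48 (0.89) and the heat shock gene Dnaja1 (0.87). Those of Itgae were Gpr89 (0.90), Smyd3 (0.82) and Gpn1 (0.81), and those of S1pr1 Satb1 (0.87), Usp28 (0.87) and Tnfrsf26 (0.86). Close to P2rx7 were Cd40lg (0.88) and Cyfip1 (0.87), close to Zfp683 after P2rx7 were Sulf2 (0.85) and Ptpn6 (0.82), and close to S1pr5 were Rabgef1 (0.79), the NK and effector marker Klrg1 (0.78) and Gnb1 (0.76). Itga1 and Ahr had no gene above 0.84, with Atp8a2 (0.83) and Spag9 (0.79) closest. Groups of these libraries share a sorted fraction, a treatment or a replicate number, and their depths differ, so the correlations are a description.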

How the data were processed

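Whole-number counts per gene, as the authors deposited them, were read for 48440 identifiers in 18 libraries; 4 identifiers have no symbol, and 22 further library columns were not used. The authors also deposited FPKM per gene, used for symbols, positions and levels between genes. Tools listed without a role in the submitters' processing notes are DESeq2 3.20, HTSeq 0.13.5, Trim Galore 0.6.7 and Cufflinks 2.2.1; for the aligner and build, not given in the sources used here. The members and lists were chosen with earlier results of these data known.

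Treated and untreated libraries were compared within a fraction (6 libraries), and fractions and differences of effects in a fit of all 18, with edgeR 4.0.16 (R 4.3.3): filterByExpr, TMM scaling, two-sided quasi-likelihood F-test, Benjamini-Hochberg adjustment over all genes tested, called below 0.05. SE is the size of the log2 change over the square root of F. CPM are from the TMM scaling of 18 libraries. Named genes were the 9 members, partner genes (Itgb7, Itgb1, Klf2, S1pr4, Tiparp, Art2b, Runx3, Prdm1 and Cxcr6), up to 3 called genes of smallest adjusted p per list, and the 3 genes of highest Pearson r per member (log2 CPM, prior count 2, mean of at least 3). For partners and between fractions, log2 values were recomputed and printed where the unadjusted p was below 0.05 or the block made a call, and levels elsewhere. Alternatives were DESeq2 1.42.0 in full or its size factors, limma 3.58.1 voom with quality weights, no filter, GC correction, the lane, other library sets and a replicate block. The scripts were tested on simulated data. Some genes that the rule names are not reported here. A count of 0 allows 3 counts, 0.0723 to 5.57 CPM by library, for counting error only.

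Replicate numbers come from the library names, which may mark the mouse. Deviations from group means of libraries with the same number correlated over 0.1 in all 3 pairs of untreated CD3+CD8+ and CD3-CD8- cells (r = 0.20, 0.39 and 0.60) and of the 3 treated comparisons (0.12 to 0.69). The numbers were assumed to pair these libraries, and the tests without a block did not use the pairing. Libraries of different numbers were not correlated, so these values cannot show that the numbers mark pairs. The other untreated comparisons share 2 numbers each and were not taken as paired. The replicate block was 1 fit of all 18 libraries, however, and it used every shared number, those of these comparisons included. Such correlations do not show that the libraries came from 1 mouse.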

Additional observations from a re-analysis of the deposited data

How the results depend on the processing

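Counts of members called moved with the processing. They are given without the share of all genes called in each alternative fit, and so are not a result about the members. In treated against untreated CD3-CD8- cells, 3 became 0 with GC correction, 1 with the lane as a covariate and 0 in a fit of all 18 libraries, and 0 to 2 when 1 library was left out. Between the 2 untreated T cell fractions, 1 became 0 with limma voom, without the libraries rich in ribosomal counts (which leaves 1 CD3+CD8+ library, assumed to vary like the other groups) and with only the 2 groups, 0 to 1 when 1 library was left out, and 2 with the replicate block, whose libraries share only 2 numbers (-0.05 and 0.51 were their correlations). Between untreated CD3+CD8+ and CD3-CD8- cells, 0 became 3 with no filter, 2 with DESeq2, 3 with limma voom, 1 with GC correction and 4 with the replicate block; for CD3+CD8- against CD3-CD8- cells it became 1 with the block (P2rx7, from 0.00 to 0.88; 2 pairs, r = 0.44 and 0.57). In treated mice, CD3+CD8+ against CD3+CD8- cells went from 2 to 4 with no filter, 1 without the libraries rich in ribosomal counts and 0 to 2 when 1 library was left out; CD3+CD8+ against CD3-CD8- cells from 1 to 4 with limma voom, 3 with the block, 0 with only the 2 groups, 0 without both kinds of doubted library (a setting chosen after seeing the data) and 0 to 1 when 1 library was left out; CD3+CD8- against CD3-CD8- cells from 0 to 1 with no filter or DESeq2 and 2 with the block. The first 2 differences of treatment effects went from 0 to 1 with no filter (S1pr5); with the replicate block all 3 stayed at 0. The cause was not tested.

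Some differences changed sign, all but Klf2 and Gnai2 not called. In CD3+CD8+ cells Ahr became -0.56 with limma voom. In CD3+CD8- cells Itga1 became 0.003 with DESeq2 size factors and 0.008 with DESeq2, Zfp683 0.12 with GC correction, Ahr -0.031 with limma voom, -0.092 without the library rich in ribosomal counts and -0.41 without untreated replicate 6 too, and P2rx7 -0.19 and -0.55 in those 2 sets. In CD3-CD8- cells GC correction gave -0.18 for Itga1, -0.087 for Cd69, 0.14 for Klf2 and 0.065 for Gnai2 (both Klf2 and Gnai2 called without it), and Ahr became 0.032 with DESeq2 size factors, 0.11 with no filter, 0.027 with DESeq2, 0.23 with limma voom, 0.000 with the lane and 0.026 in a fit of all 18. P2rx7 between CD3+CD8- and CD3-CD8- untreated cells became 0.38 with limma voom, 0.054 with GC correction and 0.31 without both kinds of doubted library. Leaving out 1 library turned the sign in these ranges: CD3+CD8+ cells, Itga1 -0.37 to 0.80 and Ahr -0.15 to 1.0; CD3+CD8- cells, Itga1 -0.57 to 0.35, Cd69 -0.76 to 0.17, Zfp683 -0.36 to 0.16, S1pr1 -0.36 to 0.093, Ahr -0.092 to 0.50 and P2rx7 -0.19 to 0.51; CD3-CD8- cells, Itgae -0.11 to 0.30, Itga1 -0.39 to 0.93 and Ahr -0.16 to 0.14; P2rx7 between CD3+CD8- and CD3-CD8- untreated cells, -0.32 to 0.40. Of 455 recomputed member values, those without 1 library aside, 374 kept their sign and side of the threshold, 38 passed it only in the alternative, 22 no longer passed and 21 changed sign. For the other named genes 120 of 746 such values no longer passed, and 198 of 504 with 1 library left out. No library of the CD3-CD8- fraction was rich in ribosomal counts, so that setting gave no value there. Depth limits Zfp683 and S1pr5 most, with 1 or 2 counts in the shallowest library.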
